A study of Mus musculus with 15 samples.

Results

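The Sham aorta is the control end of this series, and its 5 libraries, of 15 in all, were taken by their label alone. Sham, AngII and AngII + RvE1 each have 5 libraries of total RNA from aorta of mice with the WT genotype. AngII mice received angiotensin II at 750 ng per kg per minute by infusion, and AngII + RvE1 mice received that infusion plus intraperitoneal resolvin E1, a lipid mediator, at 2 µg per kg per day. For Sham the labels name no agent, and for no group do they give a strain, sex, age, segment of the aorta or hour of collection. They do not say whether libraries came from separate animals, so a spread over libraries may be partly technical. The 5 libraries are called Sham 1 to Sham 5, and where 5 values follow each other they are in that order.

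The aortic wall is built from an inner endothelium, a muscular media and an outer adventitia. Smooth muscle cells of the media contract through actin and myosin and lay down the elastic lamellae, while fibroblasts of the adventitia make collagen. Fat surrounds the vessel, in the mouse thoracic aorta it resembles brown fat, and it is hard to strip completely. RNA of a whole aorta therefore holds vessel wall, perivascular fat and residual blood in amounts that depend on anatomy and dissection.

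Values are the deposited expression values, treated as FPKM, which scales fragments to transcript length and to the mapped fragments of the library, so that levels of genes can be compared per length. Their sum per library lay between 385846 and 498948, and 11466 to 12228 of 34714 genes reached a value of 1. Read depth is unknown, so no counting error can be given. Across genes, Pearson's r between pairs of Sham libraries on the log2(FPKM + 1) scale ran from 0.893 to 0.973. The Y-linked genes Ddx3y (8.35 to 14.8 FPKM) and Eif2s3y (14.9 to 32.3 FPKM) were present in all 5 libraries, and Xist, the RNA that silences an X chromosome in female cells, was at 0.0105 FPKM or less. Libraries stood apart in 2 ways that touch the results: Sham 1 and Sham 3 lay at opposite ends of the main axis of variation, and AngII libraries 3, 4 and 5 had high lymphocyte genes, so comparisons with AngII are also given without those 3.

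A small number of genes held much of the Sham signal. The 20 most abundant genes of a library held 13.3% to 17.3% of its summed values (median 15.2%), and 50% of the sum came from 196 to 387 genes. Between 33 and 78 genes reached 1000 FPKM. The 20 genes with the highest mean mixed products of fat cells, blood, smooth muscle and mitochondria.

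Fabp4, which carries fatty acids in fat cells (chromosome 3 from 10204342 to 10208616), was first with 5578, 10350, 16336, 8082 and 6452 FPKM. It had the highest value in Sham 2 to 5, while the alpha-globin gene Hba-a1 had it in Sham 1. Scd1, the desaturase that makes monounsaturated fatty acids, was the third by its mean at 1023, 6058, 5404, 6658 and 3027 FPKM. Other fat cell genes among the 20 were Car3, a carbonic anhydrase abundant in fat (2034 to 3217 FPKM), and Thrsp, a regulator of lipid synthesis (686 to 3324 FPKM). Ucp1, the uncoupling protein that lets brown fat produce heat (chromosome 8 from 83290348 to 83298456), was eleventh at 729, 2889, 4133, 1906 and 1827 FPKM. Cox8b, a cytochrome oxidase subunit typical of brown fat and muscle, stood at 784, 2375, 4759, 1704 and 1200 FPKM. Fabp4, Ucp1, Cox8b and Thrsp were all lowest in Sham 1 and highest in Sham 3, whereas Scd1 was highest in Sham 4.

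Smooth muscle actin Acta2 (chromosome 19 from 34240336 to 34255585) was sixth, with 6288, 2272, 844, 2062 and 4428 FPKM. Tagln, an actin-binding protein of contractile muscle, was at 3969, 1344, 559, 1285 and 2226 FPKM. Both had the opposite order at the ends, highest in Sham 1 and lowest in Sham 3, a 7.45-fold range for Acta2 and 7.10-fold for Tagln. Housekeeping genes among the 20 ranged less than Acta2 and Tagln. Eef1a1, a translation elongation factor, had a highest value 1.34 times its lowest. For Gapdh, a glycolytic enzyme, it was 2.67 times, near the 2.93 times of Fabp4, and again Sham 1 was lowest and Sham 3 highest.

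**Figure D1:**
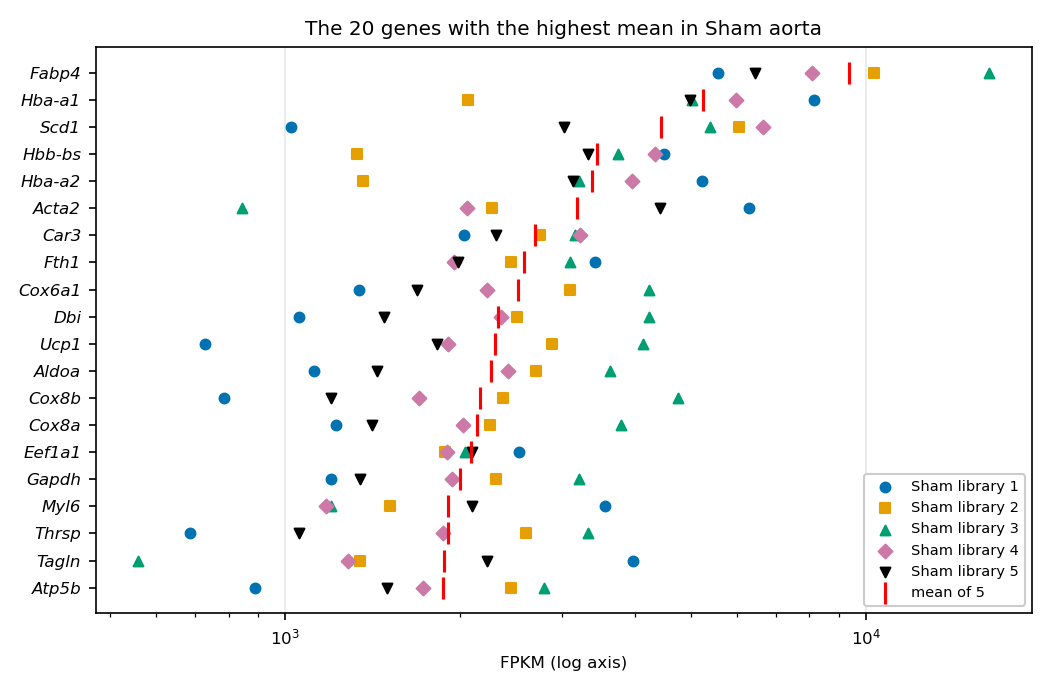
Values of the 20 genes with the highest mean in Sham aorta, in FPKM on a log axis, with 1 marker per library and a red bar at the mean of 5. Acta2 and Tagln run from Sham 3 at the left to Sham 1 at the right, and Ucp1, Cox8b and Thrsp run the other way, with Sham 1 lowest.

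Red cell RNA was present in every Sham library. Hba-a1 was at 8163, 2070, 5027, 5971 and 4980 FPKM, and the beta-globin gene Hbb-bs at 4489, 1333, 3744, 4338 and 3332 FPKM. Both were highest in Sham 1 and lowest in Sham 2. The 4 adult globin genes together held 1.28% to 4.54% of the summed values. The coding sequences of Hba-a1 and Hba-a2 are identical at 428 of 429 bases, and those of Hbb-bs and Hbb-bt at 443 of 444, so how reads were divided within each pair is uncertain and only the sum is firm. Other red cell genes were lower: Alas2, which starts heme synthesis in red cells, had 57.0, 13.7, 25.4, 42.4 and 34.3 FPKM, and the membrane gene Slc4a1 was between 0.173 and 1.37 FPKM.

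Lists of marker genes were averaged per library on the log2(FPKM + 1) scale to describe the tissue make-up. The fat cell list was highest, with means of 8.06, 9.0, 9.09, 8.90 and 8.29 over 20 genes. The 20 contractile smooth muscle genes averaged 7.63, 6.48, 5.41, 6.41 and 7.36, and all 20 were at 1 FPKM or more in all 5 libraries. The 14 brown fat genes averaged 5.15, 6.66, 7.02, 6.49 and 6.19. Smooth muscle and elastic fiber genes, which mark an elastic artery, were present in every library. By these list means fat cell genes exceeded smooth muscle genes in all 5. By share of the summed values, smooth muscle genes held more in Sham 1, 4.08% against 3.52% for fat cell genes. In the remaining libraries fat cell genes held more by that measure too. In such bulk samples more cells of a type and more RNA per cell cannot be told apart.

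**Figure D2:**
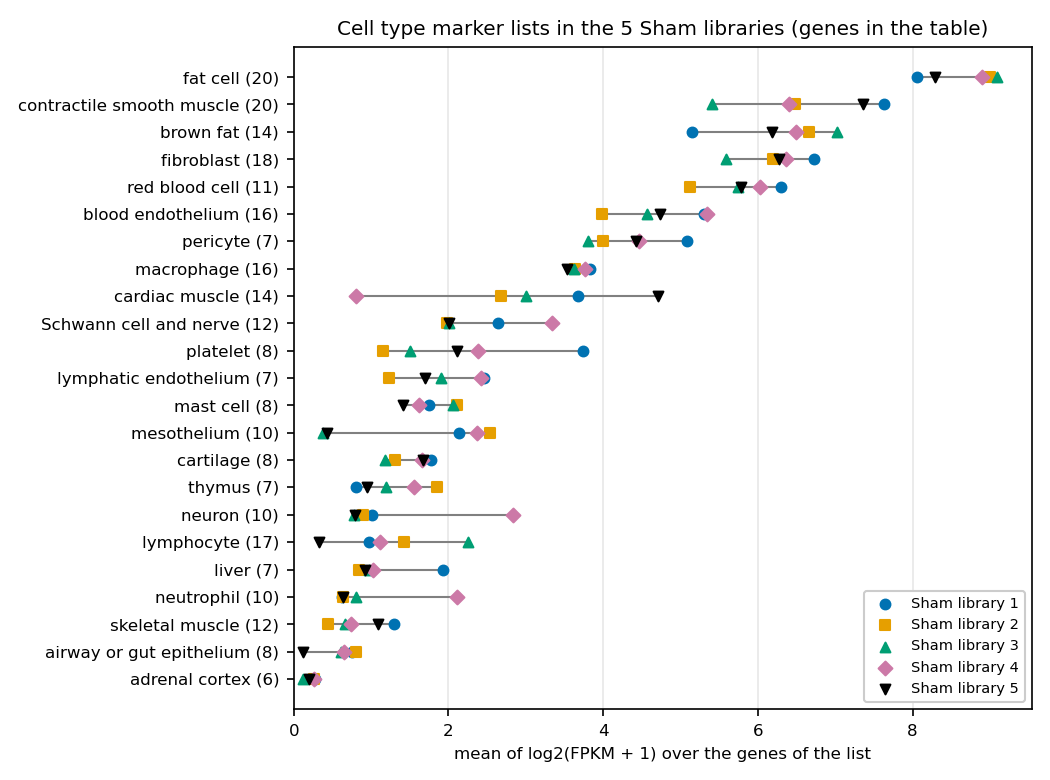
Mean of log2(FPKM + 1) over each of 23 cell type marker lists, with 1 marker per Sham library, a line from the lowest to the highest library, and the number of genes in the table in brackets. Fat cell genes lie between 8.06 and 9.09 and macrophage genes within 0.29 of each other, while cardiac muscle genes run from 0.81 in Sham 4 to 4.71 in Sham 5.

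Within the vessel wall, contractile genes moved together by library. Of the 20 smooth muscle genes 13 were highest in Sham 1 and 7 in Sham 5, and 16 were lowest in Sham 3. Myh11, the smooth muscle myosin heavy chain, was at 478, 321, 111, 336 and 587 FPKM. Myocd, the coactivator that switches on contractile genes, was at 16.5, 4.85, 2.69, 9.46 and 20.7 FPKM. Both were highest in Sham 5 and lowest in Sham 3. Sost, a secreted Wnt inhibitor made by aortic smooth muscle, followed at 187, 129, 37.8, 71.7 and 194 FPKM.

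Matrix genes had the same extremes. Elastin, Eln, the core of the elastic lamellae, was at 679, 412, 92.4, 300 and 571 FPKM. All 11 elastic fiber genes, 12 collagen chains and 8 proteoglycans described in Sham were lowest in Sham 3. Biglycan, Bgn, a small proteoglycan that binds collagen, ranked highest of these at 2076, 931, 349, 911 and 1484 FPKM. Among fibroblast genes, of which 16 of 18 were lowest in Sham 3, the range was narrower for Dcn, which encodes decorin: 492, 395, 282, 530 and 433 FPKM. Fbn2, an elastic fiber gene of development, was below 1 FPKM in all 5 libraries.

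Endothelial genes followed another order. Pecam1, an adhesion molecule of endothelial junctions, was at 124, 43.0, 54.5, 137 and 97.4 FPKM, and Nos3, the endothelial nitric oxide synthase, at 19.8, 9.03, 9.42, 24.7 and 16.8 FPKM. Of 16 blood endothelium genes 15 were lowest in Sham 2, and 9 were highest in Sham 4 and 6 in Sham 1. Plvap, which forms the diaphragms of fenestrated capillaries, had the widest range of those named, from 14.1 FPKM in Sham 2 to 146 FPKM in Sham 1. Lymphatic endothelial genes were lower, with list means of 2.46, 1.24, 1.90, 2.42 and 1.70 on the log2 scale. Lyve1 was between 4.96 and 11.01 FPKM. Ccl21a, the most abundant of them, varied far more, at 26.5, 1.30, 41.0, 17.1 and 3.45 FPKM.

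Immune cell genes were low in Sham. Macrophage genes varied least of all the cell type lists with a mean over 3, at 3.54 to 3.83 on the log2 scale. Lyz2, lysozyme of myeloid cells, was at 99.8 to 181 FPKM and C1qa, a complement subunit of tissue macrophages, at 35.1 to 57.7 FPKM. Lymphocyte genes averaged 0.97, 1.42, 2.26, 1.11 and 0.33, and 1 of 17 was at 1 FPKM or more in all 5 libraries. Mast cell genes averaged 1.41 to 2.11. Platelet genes were high in 1 library, with list means of 3.74, 1.16, 1.5, 2.38 and 2.11. The platelet chemokine Ppbp was at 43.2, 1.51, 2.93, 15.1 and 12.1 FPKM, highest in Sham 1 and lowest in Sham 2, as the globins were.

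The fat that came with the aorta had both general and brown characters. Adipoq, which encodes the hormone adiponectin, was at 451, 575, 661, 524 and 359 FPKM, and Lep, which encodes leptin, at 3.65, 17.9, 16.0, 11.7 and 2.74 FPKM. Leptin was thus low in the same 2 libraries, Sham 1 and Sham 5, in which smooth muscle genes were highest. Of the 20 fat cell genes 15 were lowest in Sham 1, but 2 were highest there. These were Cfd, at 3181, 1331, 1353, 1477 and 874 FPKM, and Retn, at 429, 167, 192, 262 and 120 FPKM. Cidea, a lipid droplet protein of brown fat, was at 363, 1367, 1734, 954 and 694 FPKM. Elovl3, a fatty acid elongase induced in active brown fat, had the widest range of the brown fat list at 5.23, 65.2, 86.8, 48.9 and 31.96 FPKM. Prdm16, a transcription factor that specifies brown fat, did not follow: it was at 7.45, 6.91, 3.93, 6.32 and 6.47 FPKM, lowest in Sham 3 where Ucp1 was highest. Adrb3, the adrenergic receptor through which cold activates fat, was at 41.6, 114, 121, 94.2 and 49.6 FPKM.

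Mitochondrial genes showed the most uniform order. All 14 respiratory chain genes and all 12 fatty acid oxidation genes were highest in Sham 3 and lowest in Sham 1. Atp5b, a subunit of ATP synthase, was at 889, 2449, 2793, 1727 and 1497 FPKM. Lipid synthesis genes shared the low end but not the high end: 8 of 10 were lowest in Sham 1, and the highest library was Sham 2 for 5 and Sham 4 for the other 5. Fasn, fatty acid synthase, was at 390, 2058, 1764, 2045 and 972 FPKM. Acly, which supplies its acetyl-CoA, was at 130, 768, 662, 728 and 316 FPKM. Sham 2, 3 and 4 were close together for both enzymes, with Sham 5 between them and Sham 1.

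Over the 11888 genes that reached 1 FPKM in 3 or more Sham libraries, 30.3% were highest in Sham 1, 8.59% in Sham 2, 20.3% in Sham 3, 17.98% in Sham 4 and 22.8% in Sham 5. The lowest value fell in Sham 1 for 24.7% of genes, in Sham 2 for 11.6%, in Sham 3 for 43.9%, in Sham 4 for 8.34% and in Sham 5 for 11.5%. These are the backgrounds for the counts by library given here.

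Principal components of these genes, centred on the log2(FPKM + 1) scale, described how the 5 libraries differed. The first component held 60.9% of the variance, with scores of -45.0, 17.7, 49.6, 0.43 and -22.8. It set Sham 1 and Sham 5 against Sham 3 and Sham 2, with Sham 4 near 0. All 20 smooth muscle, 18 fibroblast, 11 elastic fiber and 12 collagen genes lay on the side of Sham 1. On the side of Sham 3 lay all 14 respiratory chain, 12 fatty acid oxidation and 10 lipid synthesis genes, 12 of 14 brown fat genes and 17 of 20 fat cell genes. Of all 11888 genes, 4377 lay on that side and 7511 on the other. Heat shock genes, 10 of 10, and 13 of 15 immediate early genes, which cells switch on within minutes of a stimulus, were on the Sham 1 side. Such genes can respond to handling of tissue, and their part in the component was not tested. Of the 10 heat shock genes 3 fell in the group of variable genes led by Acta2 and Tagln, described below. The second component held 17.7%, with scores of 23.8, -8.02, 18.1, -19.7 and -14.2. Kap, described below, led the end of Sham 1 and Sham 3, followed by Sln, a regulator of the calcium pump of atrial muscle. The lipid synthesis genes Scd1 and Elovl6 stood at the other end. Sln was at 64.7, 28.4, 77.5, 0.182 and 161 FPKM. It was thus nearly absent in Sham 4 but highest in Sham 5, and both of these libraries scored below 0.

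A gene was called variable when its SD over the 5 libraries was at least 0.75 on the log2(FPKM + 1) scale. There were 768 such genes in Sham, 6.46% of those described, against 1390 (11.1%) in AngII and 224 (1.85%) in AngII + RvE1 by the same rule. The median SD of a gene was 0.31 in Sham, 0.29 in AngII and 0.20 in AngII + RvE1. The steadiest genes with a mean of at least 10 FPKM were Gstp2, a glutathione transferase (23.5 to 24.5 FPKM), and Aup1, a protein of lipid droplets and the endoplasmic reticulum (60.4 to 63.0 FPKM). The variable genes were grouped by the similarity of their profiles over the 5 libraries. Because the groups were made from these values, they are a description and carry no test.

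The largest group held 367 genes, with mean deviations from each gene's Sham mean of 0.91, -0.20, -1.22, -0.12 and 0.63 on the log2 scale. Its most abundant members were Acta2, Tagln, the myosin light chain Myl9 (3673, 1279, 562, 1121 and 1993 FPKM), Bgn, Mgp, which keeps arteries from calcifying, and Igfbp7. It held 16 of the 20 smooth muscle genes, 5 of 11 elastic fiber genes and 5 of 12 collagen chains. Cd99, an adhesion molecule, was also in it and had the second largest SD of all genes with a mean of at least 10 FPKM, at 164, 69.2, 0, 41.5 and 80.2 FPKM. A listed 0 beside such values may be a failed estimate.

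The second group held 190 genes with nearly the mirror image, at -1.25, 0.53, 0.85, 0.23 and -0.36. Scd1, Dbi, which binds acyl-CoA esters, Ucp1, Cox8b, Thrsp and Gpd1, which makes the glycerol phosphate of triglycerides, led it. It held 10 of 14 brown fat genes, 7 of 10 lipid synthesis genes, 6 of 12 fatty acid oxidation genes and 3 of 20 fat cell genes. Adiponectin was not in it, since its SD was 0.34.

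**Figure D3:**
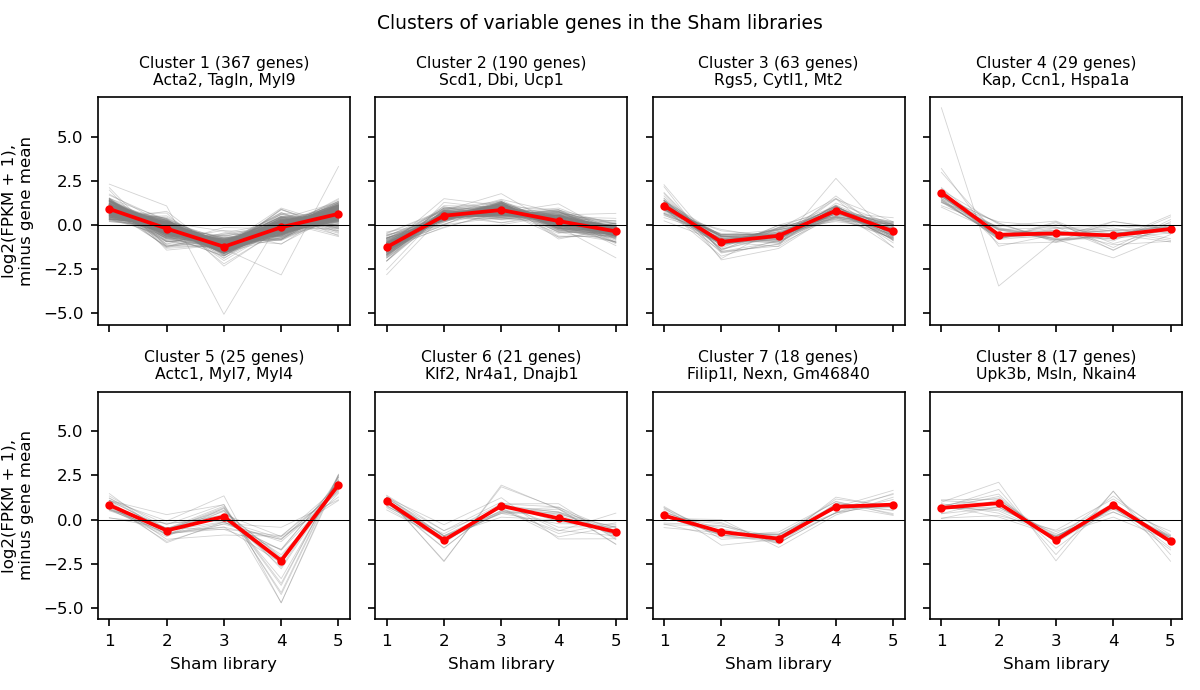
Profiles of the 8 largest groups of variable genes over the 5 Sham libraries, on the log2(FPKM + 1) scale minus each gene's mean, with 1 grey line per gene and the group mean in red. Lines join libraries, which have no order. The groups of 367 and 190 genes bend in opposite directions at Sham 1 and Sham 3, and the group of 25 cardiac genes falls in Sham 4 and peaks in Sham 5.

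Because contractile genes are known targets of serum response factor, which binds the CArG box, promoters of the 367 genes were searched for it (CC, then 6 bases that are each A or T, then GG, on both strands). RefSeq promoters of GRCm38.p6, from 250 bases before to 50 after a start, were found for 273 of the 367 genes. Of their 353 promoters 14 held a CArG box, 3.97%, against 0 of the 194 promoters of the second group, 1.34% of the 12217 promoters of all genes described in Sham and 1.63% of 32851 promoters in the table. The motif was chosen with the groups known, and a match is letters in this window, not a binding site. The stretches below show the 5 matching genes with the highest Sham mean, 5′ to 3′ on the gene's strand, with the CArG box in capitals.
Myl9: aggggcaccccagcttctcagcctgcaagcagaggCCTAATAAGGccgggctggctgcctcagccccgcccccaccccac
Cbr2: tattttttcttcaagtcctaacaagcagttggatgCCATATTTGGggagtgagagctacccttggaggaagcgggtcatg
Lmcd1: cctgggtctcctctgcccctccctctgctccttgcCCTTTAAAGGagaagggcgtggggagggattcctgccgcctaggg
Vcl: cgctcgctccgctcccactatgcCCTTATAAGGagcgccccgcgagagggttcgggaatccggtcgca
Myom1: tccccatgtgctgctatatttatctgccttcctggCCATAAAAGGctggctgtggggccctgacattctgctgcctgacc

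The Myl9 stretch is at chr2:156775268-156775347 on the plus strand, and its box starts 161 bases before the start site. The Cbr2 stretch is at chr11:120732085-120732164 on the minus strand, the Lmcd1 stretch at chr6:112273508-112273587 on the plus strand, the Vcl stretch at chr14:20929148-20929215 and the Myom1 stretch at chr17:71019423-71019502, both on the plus strand. Vcl encodes vinculin, which anchors actin at adhesions, and was at 85.9, 43.6, 21.3, 52.2 and 86.2 FPKM. Myom1, a protein of the sarcomere's M band, was at 48.7, 36.9, 13.9, 33.7 and 91.6 FPKM. Of the contractile smooth muscle list itself, 1 of 17 promoters, that of Myl9, held the box in this window. Motifs searched in the second group were rare: TGACGTCA, the cyclic AMP response element, was in 2.58% of its promoters against 2.88% of all described, and TCAAGGTCA, bound by estrogen-related receptors, in 0.515% against 0.278%, which is 1 promoter. The palindromic motif of the nuclear respiratory factor NRF1 was in 1.55% against 1.97%.

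Further patterns separated single libraries or small sets of them. The first was cardiac muscle, of which 7 of the 9 described genes fell in a group of 25 genes with deviations of 0.82, -0.62, 0.16, -2.33 and 1.97. Myl7, the light chain of atrial myosin (chromosome 11 from 5896637 to 5898782), was at 78.7, 44.8, 66.6, 0.445 and 216 FPKM. Nppa, the atrial natriuretic peptide, was at 39.8, 6.82, 22.3, 0.114 and 84.0 FPKM. Both were highest in Sham 5 and nearly absent in Sham 4. The myosin genes Myl2 and Myh7 stayed low, at most 1.65 FPKM and 2.14 FPKM. Myh6, a myosin heavy chain of the cardiac list, was at 13.4, 7.43, 2.24, 0.161 and 80.6 FPKM. Which part of the heart such RNA came from was not tested.

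The second pattern was mesothelium, the lining of the body cavities. Upk3b, a membrane protein of mesothelium (chromosome 5 from 136038496 to 136044993), was at 11.05, 25.3, 0.206, 17.7 and 0.186 FPKM. Msln, which encodes mesothelin, was at 5.30, 11.9, 0, 10.97 and 0 FPKM. Sham 3 and Sham 5 were at or near 0 for both, and Sham 1, 2 and 4 were above 5 FPKM. A group of 17 variable genes held 7 of the 8 described mesothelium genes, with deviations of 0.65, 0.92, -1.16, 0.82 and -1.24.

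The third pattern was genes high in a single library, found as those with a value of at least 5 FPKM that exceeded the next library by at least 2 on the log2 scale. Sham 1 had 32 such genes, Sham 4 had 11, Sham 3 had 5, Sham 5 had 1 and Sham 2 had 0. In Sham 1 the 3 largest gaps were those of Kap, Slc34a1 and Miox. Kap, a protein of the proximal tubule (chromosome 6 from 133849855 to 133853667), was at 1088, 0, 5.28, 2.01 and 6.54 FPKM, and Slc34a1, the renal phosphate transporter, at 28.2, 0, 0.201, 0.0561 and 0.170 FPKM. In the 10 infused libraries the highest value was 3.99 FPKM for Kap and 0.132 FPKM for Slc34a1. Miox, a kidney enzyme of inositol breakdown, was at 31.0 FPKM in Sham 1 and at most 0.502 FPKM in the other 4.

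The genes of Sham 4 with the largest gaps to the next library were Npy, Dbh and Th, which sympathetic neurons express. Npy, the neuropeptide released with noradrenaline, was at 1.34, 0.773, 0.163, 75.2 and 0 FPKM. Dbh and Th, which make noradrenaline, were at 18.8 and 13.3 FPKM in Sham 4 and at most 0.734 and 0.498 FPKM in the other 4 Sham libraries. The same genes were high in some infused libraries, where Npy reached 239 FPKM, so the signal was not particular to Sham 4. Schwann cell genes were also highest there: 7 of 9 had their top value in Sham 4, against 17.98% of all genes described.

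Neutrophil genes were high in the same library. S100a8, a calcium-binding protein of granulocytes, was at 2.50, 1.87, 3.48, 15.4 and 2.64 FPKM, and Ngp, a granule protein, at 0.281, 0.723, 0.780, 9.25 and 0.493 FPKM. The 5 genes of Sham 3 were Glycam1, Ms4a4b, Svs4, Dapl1 and Cd52. Glycam1, a ligand made by lymph node venules, was at 13.6 FPKM and listed at 0 in the other 4. Cd52, a surface protein of lymphocytes, was at 15.4, 12.7, 76.0, 12.1 and 4.25 FPKM. Ms4a4b, a membrane protein of T cells, was at 9.36 FPKM in Sham 3, Svs4, a secretory protein of the seminal vesicle, at 6.42 FPKM, and Dapl1 at 5.95 FPKM. Glycam1 and Cd52 reached 85.5 and 598 FPKM in infused libraries. The B cell genes Cd79a (18.7 FPKM) and Cd79b (11.2 FPKM) were also highest in Sham 3. The mean of the lymphocyte list was highest there too, at 2.26 against 1.42 in Sham 2, but its members were divided. Of the 8 described, 4 were highest in Sham 3 and 4 in Sham 2, the latter being the T cell genes Cd4, Cd8a, Cd8b1 and Lck.

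**Figure D4:**
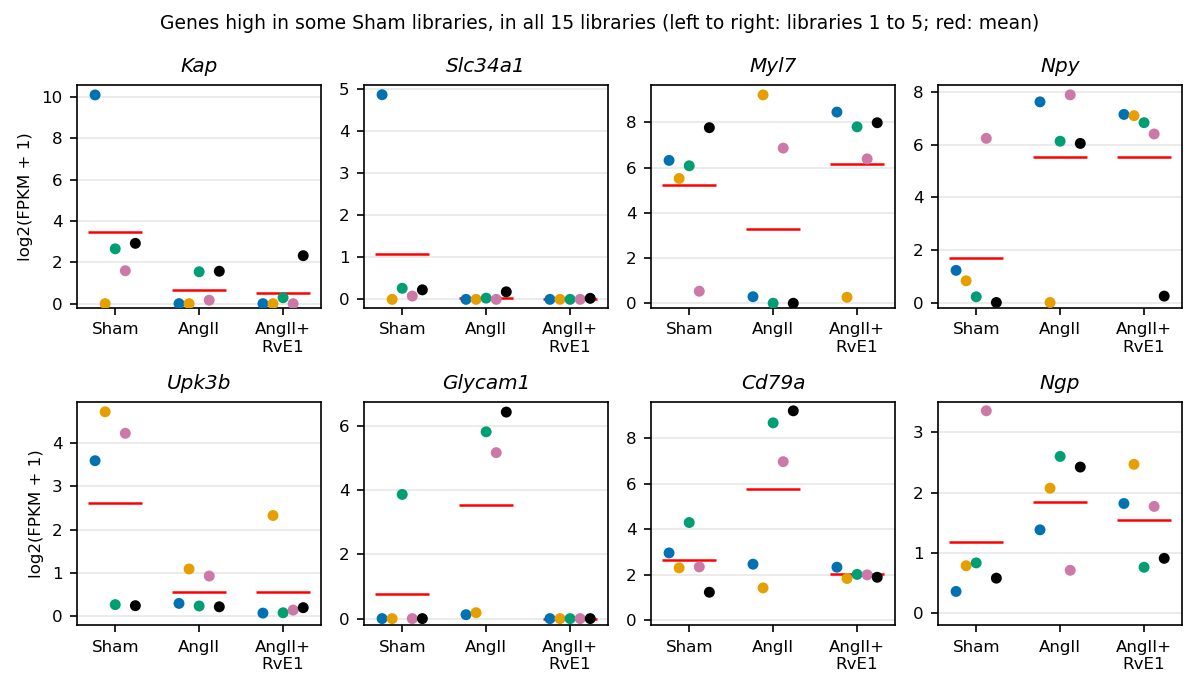
Log2(FPKM + 1) of 8 genes in all 15 libraries, with libraries 1 to 5 of each group from left to right and a red line at the group mean. Kap and Slc34a1 stand out in Sham 1 only, Npy is high in Sham 4 and in 8 infused libraries, and Glycam1 and Cd79a are high in Sham 3 and in AngII libraries 3, 4 and 5.

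Hox genes, which keep a record of position along the body axis, differed between libraries at the posterior end. Hoxc10 was at 8.79, 0, 1.73, 3.95 and 0.150 FPKM and Hoxa10 at 4.89, 0.124, 1.13, 3.08 and 0.378 FPKM. Both had the order Sham 1, Sham 4, Sham 3 and then Sham 5 and Sham 2. The more anterior genes Hoxa5 (11.5 to 18.8 FPKM) and Hoxc6 (8.24 to 12.3 FPKM) ranged less. Hoxa4, at 4.22, 14.8, 8.72, 9.05 and 4.68 FPKM, was highest in Sham 2. The labels do not name the segment collected, and its part in these values was not tested.

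Stress-responsive genes also varied. Hspa1a, an inducible heat shock chaperone, was at 338, 55.8, 109, 34.6 and 109 FPKM. Fos, an immediate early transcription factor, was at 166, 45.4, 29.4, 35.1 and 58.6 FPKM. Both were highest in Sham 1, the library high for Kap, and belonged to a group of 29 genes that stood 1.83 above their mean there. Nr4a1, another immediate early gene, was instead high in both Sham 1 (183 FPKM) and Sham 3 (181 FPKM).

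Whether the Sham groups of genes also varied together in libraries not used to form them was described by the variance share of the first component of their standardised values within AngII and within AngII + RvE1. For all 768 variable genes these shares were 47.2% and 51.3%, and for all 11888 genes described 58.2% and 38.5%. The group of 25 cardiac genes had 92.2% and 87.8%, and the fat and mitochondrial group of 190 genes 84.3% and 62.9%. For the smooth muscle group of 367 genes the shares were 60.1% and 61.1%, the former near that of all genes described. The groups of 63, 29 and 18 genes had 47.6%, 45.8% and 42.9% in AngII and 42.1%, 58.6% and 50.8% in AngII + RvE1, and that of 21 genes 70.7% and 61.6%. The mesothelium group had 40.3% in AngII, below the 768 genes, and 61.0% in AngII + RvE1. A small group can reach a high share more easily than a large one, and AngII libraries 3, 4 and 5 stood apart for many genes.

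The genes through which angiotensin II and resolvin E1 act were present at modest levels in Sham. Agtr1a, the main angiotensin II receptor, was at 1.54, 2.49, 2.02, 3.24 and 1.64 FPKM, and Agtr2 was listed at 0 in 4 libraries and at 0.148 FPKM in Sham 4. Ace, which makes angiotensin II, was at 44.5, 35.1, 12.2, 36.6 and 42.7 FPKM. Only Sham 3 was low for Ace, as it was for the wall genes. Ptgis, which makes the vasodilator prostacyclin, was at 329, 131, 51.1, 99.7 and 280 FPKM, the order of the smooth muscle genes at the extremes.

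Cmklr1, which encodes the resolvin E1 receptor ChemR23, was at 11.2, 6.92, 3.44, 12.4 and 9.49 FPKM. It was lowest in Sham 3 and highest in Sham 4. Rarres2, which encodes chemerin, the protein ligand of that receptor, was at 233, 140, 88.5, 153 and 135 FPKM. Of the 12 genes of the resolvin and leukotriene list 5 were below 1 FPKM in all Sham libraries, and Gpr37 was listed at 0 in all 5. Alox5ap, which presents arachidonate to 5-lipoxygenase, was at 11.5, 5.02, 7.61, 7.90 and 7.23 FPKM.

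Sham was compared with the other 10 libraries by limma on log2(FPKM + 1), as Sham minus the mean of the AngII and AngII + RvE1 group means, with Benjamini-Hochberg adjustment over 12603 genes. Genes of the circadian clock, a loop in which activators drive their own repressors, differed most. Of 16 clock genes 3 were higher and 7 lower in Sham at an adjusted p under 0.05, while over all genes tested 4 were higher (0.0317%), 15 were lower (0.119%) and 19 differed in either direction (0.151%). The unadjusted p was under 0.05 for 1449 genes, and the median difference of all genes was -0.06.

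Dbp, a transcription factor of clock output (chromosome 7 from 45705100 to 45710203), was at 6.68, 3.85, 3.83, 2.18 and 4.02 FPKM in Sham. In AngII it was at 85.5, 107, 47.3, 110 and 48.2 FPKM, and in AngII + RvE1 at 43.5, 34.2, 51.6, 74.9 and 86.5 FPKM. No Sham library overlapped an infused one, and Sham differed from the rest by -3.72 log2 units with an SE of 0.27 (limma adjusted p = 6.72e-06). Nr1d1, which encodes the repressor REV-ERB alpha, was at 22.4, 29.0, 17.8, 27.1 and 52.2 FPKM in Sham and at 71.5 to 133 FPKM in the other 10 libraries (difference -1.68, SE 0.22, limma adjusted p = 0.00424). Per3, Nr1d2, Tef, Ciart and Bhlhe41 were lower as well.

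The activators had the opposite direction. Arntl, which encodes BMAL1, was at 9.04, 8.46, 6.58, 9.33 and 11.7 FPKM in Sham and at 1.01 to 5.72 FPKM elsewhere (difference 1.31, SE 0.19, limma adjusted p = 0.0112). Npas2, whose protein pairs with BMAL1 as CLOCK does, was at 8.90, 5.92, 2.22, 6.20 and 5.94 FPKM in Sham and overlapped the infused libraries through Sham 3 (difference 1.39, limma adjusted p = 0.0185). Its difference was 2.06 against AngII alone and 0.73 against AngII + RvE1 alone, and its call was lost in 7 of 22 alternatives, with adjusted p up to 0.664. Nfil3, a repressor that competes with Dbp, was at 40.7, 20.4, 29.1, 18.4 and 28.2 FPKM in Sham and at 3.17 to 14.9 FPKM elsewhere (difference 1.91, SE 0.30, limma adjusted p = 0.0157). Against AngII + RvE1 alone, of the 10 clock genes called only Dbp and Nr1d1 passed the test. There the limma adjusted p was 0.0741 for Per3, 0.0881 for Nr1d2 and Tef, 0.114 for Nfil3 and 0.343 for Arntl. The hour at which each aorta was taken is not in the labels and cannot be told apart from treatment.

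**Figure D5:**
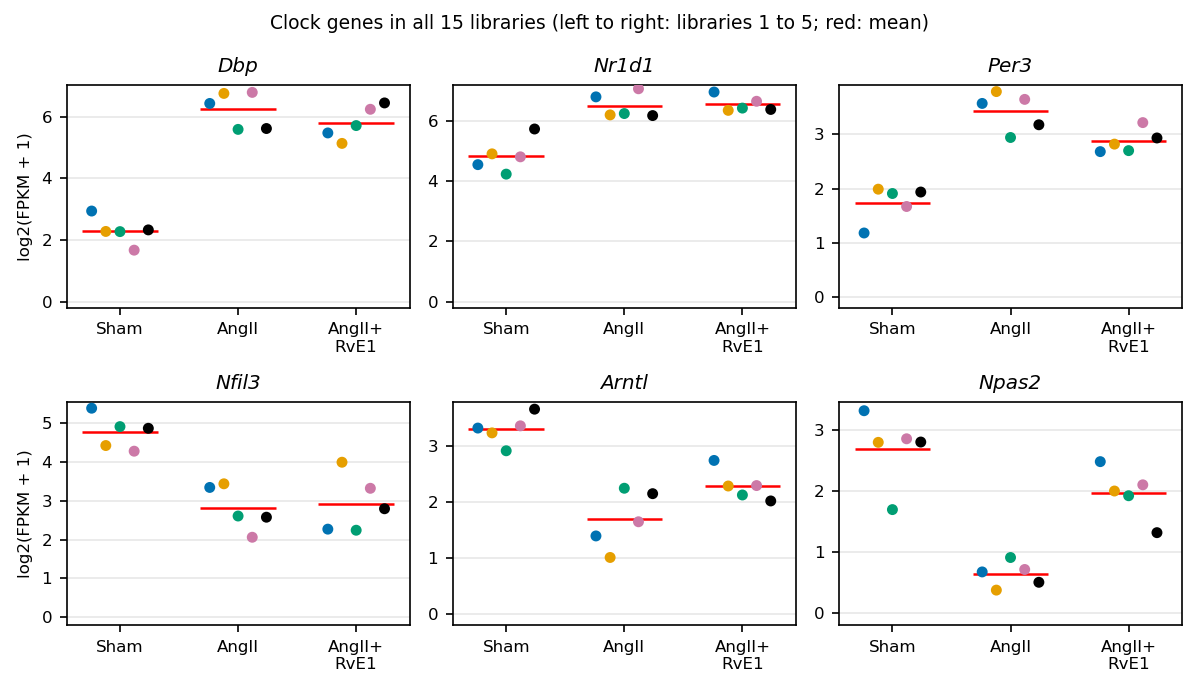
Log2(FPKM + 1) of 6 clock genes in all 15 libraries, with libraries 1 to 5 of each group from left to right and a red line at the group mean. All 5 Sham libraries lie below the infused ones for Dbp, Nr1d1 and Per3 and above them for Nfil3 and Arntl, while 1 Sham library overlaps them for Npas2.

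Outside the clock, Cyp51, an enzyme of cholesterol synthesis, was higher in Sham at 10.3, 10.9, 15.2, 10.9 and 9.92 FPKM against 4.74 to 8.48 FPKM (difference 0.70, limma adjusted p = 0.0193). Of 17 tested genes in the vasoactive receptor and enzyme list limma called 1, which was lower in Sham. Of 376 tested genes in 38 further lists limma called 0, and 57 had an unadjusted p under 0.05. The smooth muscle, fat, mitochondrial and cardiac genes that separated the Sham libraries thus did not pass the test between Sham and the rest. The 10 lipid synthesis genes had a median difference of 0.89 and the 20 smooth muscle genes of 0.31. For smooth muscle genes the infused groups lay on either side of Sham. The list mean averaged 6.66 in Sham, and its median was 5.36 in AngII and 7.27 in AngII + RvE1. In that limma fit Scd1 differed by 1.10 (SE 0.51, adjusted p = 0.427), Ucp1 by 0.66 (SE 0.56, adjusted p = 0.677) and Acta2 by 0.50 (SE 0.41, adjusted p = 0.665). The Acta2 value averaged opposite directions, 1.56 against AngII alone and -0.55 against AngII + RvE1 alone. Hba-a1 differed by -1.28 (SE 0.50, limma adjusted p = 0.339), and the mesothelial Upk3b by 2.05 (SE 0.69, limma adjusted p = 0.286), which rested on 3 of the 5 Sham libraries. Agtr1a differed by -0.63 (SE 0.20, limma adjusted p = 0.281) and Cmklr1 by -0.09 (SE 0.23, limma adjusted p = 0.909). The sign for Cmklr1 turned in 3 of 22 alternatives, with values from -0.30 to 0.16.

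The number of genes called depended on single libraries and on the reference group. Without Sham 1, 13 genes were higher and 25 lower. Without Sham 2 these counts were 2 and 7, and without AngII 2 they were 7 and 33. Without Sham 5 limma called 0 genes higher and 6 lower, while 249 were higher at an unadjusted p under 0.05. The count of higher genes was 8 without Sham 3, 2 without Sham 4 and 10 without AngII + RvE1 2. With AngII 3, 4 and 5 left out, 1 gene was higher and 12 were lower. After rescaling libraries by their median ratio, 8 were higher and 10 lower. Against AngII alone 102 genes were higher and 298 lower in Sham, and against AngII + RvE1 alone 1 was higher and 2 were lower. The difference between these sets was not tested, and both share the Sham libraries. Dbp and Nr1d1 kept their call in all 22 alternatives.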

How the data were processed

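Total RNA of aorta was sequenced, and the authors deposited 1 table with 1 value per gene and library. Its header names no unit. The authors deposited values that are already normalised and are treated here as FPKM, though how they were made is not stated per the file header. They have decimals, unequal sums per library and no value above 0 shared by more than 6 genes of a library and are thus neither counts nor CPM. Scaling to length is assumed. The lowest values of genes with a mean under 1 were only weakly related to transcript length (Spearman's rho -0.13 across 8596 genes). Across 20838 genes above 0 in at least 1 library rho was 0.13, the opposite sign. TPM over a wider set of genes is possible. The build is mm10, per the submitters' processing notes. The sources used here name no aligner, quantifier or annotation. Each of the 34714 symbols matched RefSeq of GRCm38.p6, the source of coordinates and promoters.

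Values were transformed as log2(FPKM + 1) in Python 3.11.15 with pandas 2.3.3, numpy 2.4.6 and scipy 1.17.1. Groups of variable genes came from average linkage on 1 minus Pearson's r of library profiles, at a tree height of 0.3. The comparison used limma-trend (limma 3.58.1 in R 4.3.3), two-sided, on genes that reached 1 FPKM in 5 or more libraries. The procedure was also run on simulated data with independent noise for each gene. Such data lack the shared variation of genes seen here, so that run is no check of the calls under it. Of 488 genes in 40 lists, 486 were in the table.

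The members, lists and rule for named genes were chosen with earlier results of these data known. The rule takes the 20 most abundant genes, the 3 highest of each list, the 8 at each end of both components, the 10 most and least variable, up to 5 per library high in it alone, the 6 leading each group of at least 20 genes, the 6 largest non-overlapping differences each way, and any gene of the vasoactive, resolvin, Hox and sex-linked lists. The motifs and the genes Hbb-bt, Alas2, Slc4a1, Myh11, Myocd, Sost, Fbn2, Adipoq, Lep, Cfd, Retn, Prdm16, Lmcd1, Vcl, Myom1, Myl2, Myh7, Cd79b, Cd4, Cd8a, Cd8b1, Lck, Ciart, Bhlhe41 and Npas2 were named after their values were seen. Alternatives were an added value of 0.1, no filter, a replicate block, rescaling by median ratio, removal of hemoglobin genes, list medians, other reference groups, and each library left out. No library was dropped from the values reported, and some genes are not reported here.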

Additional observations from a re-analysis of the deposited data

Results flagged for a closer look

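Within the 5 Sham libraries, a value is given here when 1 library lay far from the other 4 on the log2(FPKM + 1) scale, by Dixon's 95% limit. That held for 20 of the 103 named genes that were looked at and 5 of the 40 lists. Chance alone gives about 1 in 20 such groups, and many of the genes were named because 1 library was high.

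In Sham 1 Kap (1088 against 0 to 6.54 FPKM), Miox (31.0 against 0 to 0.502 FPKM) and Slc34a1 (28.2 against 0 to 0.201 FPKM) were high. So were Myl2, a ventricular myosin light chain, at 1.65 against 0.0839 to 0.197 FPKM, and the liver list, whose mean was 1.92 against 0.85 to 1.03.

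In Sham 2 the beta-globin genes Hbb-bs (1333 against 3332 to 4489 FPKM) and Hbb-bt (565 against 1344 to 1732 FPKM) were low.

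In Sham 3 Ace (12.2 against 35.1 to 44.5 FPKM), Prdm16 (3.93 against 6.32 to 7.45 FPKM) and Cd99 (0 against 41.5 to 164 FPKM) were low. Glycam1 was at 13.6 FPKM where the other 4 were listed at 0, and Cyp51 at 15.2 against 9.92 to 10.9 FPKM. Ms4a4b was at 9.36 against 0.195 to 0.601 FPKM, Svs4 at 6.42 against 0 to 0.435 FPKM, and Dapl1 at 5.95 against 0 to 0.399 FPKM.

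In Sham 4 other genes were high. Npy was at 75.2 against 0 to 1.34 FPKM, Dbh at 18.8 against 0 to 0.734 FPKM and Th at 13.3 against 0.111 to 0.498 FPKM. S100a8 was at 15.4 against 1.87 to 3.48 FPKM, Ngp at 9.25 against 0.281 to 0.780 FPKM, and Agtr2 at 0.148 FPKM against 0. The list means of neurons (2.83 against 0.77 to 1.01), neutrophils (2.11 against 0.63 to 0.81) and the interferon response (2.77 against 2.07 to 2.26) were highest there. The airway or gut epithelium list was lowest in Sham 5, at 0.12 against 0.61 to 0.80.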

How the results depend on the processing

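Read depth is unknown, so differences at low values cannot be judged against counting error. Over single genes and alternatives, 355 differences between Sham and the rest kept direction and side of the threshold, 31 kept direction and lost the call, and 5 changed sign. In the limma comparison (4 genes higher and 15 lower in Sham) the counts without 1 library ran from 0 to 13 higher and from 6 to 33 lower. They were 8 higher after median-ratio rescaling, 1 higher without AngII 3, 4 and 5, 102 higher and 298 lower against AngII alone, and 1 higher and 2 lower against AngII + RvE1 alone. With the replicate number as a block, 0 genes were higher and 5 lower, while 316 and 1007 had an unadjusted p under 0.05. Libraries with the same number showed no clear pairing. The median correlation of their deviations was 0.02 over 15 pairs (-0.41 to 0.52), with 4 pairs over 0.1. For libraries with different numbers it was -0.005 over 60 pairs (-0.54 to 0.56), with 25 over 0.1. Many pairs share a library, so this check cannot exclude a pairing. Npas2 lost its call in 7 of 22 alternatives, Ciart and Cyp51 in 6 each, Nfil3 in 4, Arntl in 3, Bhlhe41 in 2 and Nr1d2, Per3 and Tef in 1 each. The Cmklr1 difference ran from -0.23 to 0.16 without 1 library (0.16 without Sham 3), and was 0.076 without AngII 3, 4 and 5 and 0.11 against AngII + RvE1 alone. Ucp1 differed by -0.012 without AngII 3, 4 and 5, and Acta2 by -0.55 against AngII + RvE1 alone. Within Sham, component 1 held 58.7% to 71.8% of the variance with 1 library left out, and component 2 held 18.7% to 22.1%, 19.6% with no filter and 20.3% with hemoglobin genes removed. Variable genes numbered 443 (without Sham 3) to 1063 (without Sham 4), 481 without Sham 1, and 1394 with 0.1 added in place of 1. With 0.1 added, the list means of red blood cells (5.23), lymphocytes (0.094), neurons (-0.45) and mesothelium (0.40) moved by more than the spread between libraries. The median over members did so for brown fat (5.42) and red blood cells (4.78). Except for the smaller number of libraries, the cause was not tested.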
